A study of Mus musculus with 6 samples.

Results

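Neurotrophins and the GDNF family are secreted trophic factors, and 9 genes for these ligands and their receptors were followed here in ipsilateral and contralateral retinal ganglion cells (RGCs) of the mouse embryo. The genes were Bdnf, Ntf3 and Gdnf among the ligands, and Ntrk2, Ntrk3, Ngfr, Ret, Gfra1 and Gfra2 among the receptors. They were chosen by name, and every probe set that the array's annotation assigns to 1 of these symbols and to no other gene was used. This gave 32 probe sets for 8 of the 9 genes, out of 18193 genes named by at least 1 probe set. No probe set carried the name Ntf3, and that ligand was not analysed here.

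Both groups were RGCs of C57BL/6J embryos at E16.5, labeled with rhodamine-dextran put on the cut optic tract for 2 hours and purified by FACS, with dead cells excluded by DAPI. Ipsilateral RGCs came from the retina on the same side as the labeled tract and contralateral RGCs from the retina across the midline. Each of 3 rounds gave 1 ipsilateral and 1 contralateral sample from retinas pooled over 2 litters, so single embryos cannot be told apart. The study kept the rounds with the strongest Zic2 enrichment in ipsilateral RGCs by qPCR, and RNA was amplified as cDNA before hybridization to 6 Affymetrix mouse genome arrays. The values are log2 intensities, in which a difference of 1 is a 2-fold change, and all differences are ipsilateral minus contralateral.

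BDNF acts through the receptor tyrosine kinase TrkB (Ntrk2) and NT-3 mainly through TrkC (Ntrk3), whereas p75NTR (Ngfr) binds every neurotrophin as well as their uncleaved precursors. GDNF and its relatives first bind a GFRα coreceptor held in the membrane by a lipid anchor, and the complex then activates the kinase Ret. In the visual system, BDNF from the retina and from the targets of RGC axons is known for its effects on RGC survival and on axon and dendrite branching.

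In brief, none of the trophic factor genes met the criterion for a change between ipsilateral and contralateral RGCs. Of the 32 probe sets, 31 passed the filter on low values (a mean of at least log2 4.74 over the 6 arrays), and limma called 0 of the 31 (a 2-fold difference in either direction and p under 0.05 after Benjamini–Hochberg adjustment), against 0.244% of all 36029 probe sets kept (88, every one higher in ipsilateral RGCs). The study, with the same cutoffs in other software, listed more probe sets over the array, in both directions. That no call was lower in ipsilateral RGCs thus holds for this fit. At 2-fold and an unadjusted limma p under 0.05, 0 of 31 passed, against 2.29% of all probe sets. Without the 2-fold condition, 0 of 31 had an unadjusted limma p under 0.05. In an unmoderated test 1 had it (Ntrk3 1455917_at), against 2.80% of all probe sets in that test. The adjusted p of each of the 31 rounded to 1. Of the 31, 27 had a mean difference under 0.5 on the log2 scale, and 1 reached 2-fold in size, the latter against 2.65% of all probe sets. The share over all probe sets was not counted for differences under 0.5, nor for the limma p without the 2-fold condition. The numbers of the samples pair them within rounds, and a fit with the replicate block called 0 of 31 as well (75 over the array), with a lowest adjusted p of 0.296.

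The first ligand, Bdnf, was read by a pair of probe sets with unlike patterns. At 1422168_a_at, the brighter of them, ipsilateral RGCs had log2 values of 6.82, 6.96 and 5.91 in rounds 1 to 3, and contralateral RGCs had 6.54, 7.79 and 6.76. The ipsilateral sample was higher in round 1 and lower in rounds 2 and 3, and the groups overlapped. The mean difference was -0.46 ± 0.46 (SE, n = 3 per group; 1.38-fold lower, limma adjusted p = 1). Each SE in this report is from limma, which moves the spread of a probe set toward a value shared by all probe sets. At 1422169_a_at the difference came from round 1 alone, with 5.27 in ipsilateral and 5.87 in contralateral RGCs, whereas the values of the 2 sides were 5.76 and 5.76 in round 2 and 6.65 and 6.66 in round 3.

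Gdnf, the ligand that Gfra1 and Ret serve, was read by 1 probe set, 1419080_at, which lay below the median of the array in all 6 samples. Its ipsilateral values were 4.61, 5.46 and 5.13 and its contralateral values 4.54, 5.36 and 5.56. The sides lay within 0.1 of each other in rounds 1 and 2 and round 3 was lower in ipsilateral RGCs by 0.43, for a mean difference of -0.09 ± 0.43 (SE). The deposited values carry no detection call, so whether this signal exceeded background is unknown.

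Ntrk2, which encodes TrkB, had 8 probe sets, and 7 of them had a lower mean in ipsilateral RGCs. The brightest, 1437560_at, gave the most even difference across rounds. Ipsilateral RGCs had 8.80, 9.58 and 9.31 and contralateral RGCs 9.19, 9.95 and 9.70, so that the ipsilateral sample was lower by 0.39, 0.37 and 0.39 in the 3 rounds. On the deposited scale the groups overlapped, with round means spread over 0.77. The array medians themselves ran from 5.797 to 6.705, and after each sample was centred on its median the round means spread over 0.12 and the ipsilateral values (2.98, 2.88 and 2.98) all lay below the contralateral ones (3.39, 3.29 and 3.44). The mean difference was -0.38 ± 0.41 (SE) without the block and the same value ± 0.14 with the replicate block, where the limma adjusted p was 0.315.

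The largest Ntrk2 difference was at 1435305_at. Its ipsilateral values were 7.53, 8.90 and 8.32 and its contralateral values 8.58, 8.97 and 9.22. Rounds 1 and 3 were lower in ipsilateral RGCs by 1.04 and 0.90 and round 2 by 0.08, and the mean difference was -0.67 ± 0.44 (SE; 1.59-fold lower, limma adjusted p = 1, and 0.296 with the replicate block). The probe set 1458622_at had a different order of rounds, with differences of 0.06, -1.26 and -0.50. At 1444121_at the rounds were 0.49, -0.02 and -0.66, which left a mean of -0.06. The probe set 1420837_at was the exception to the lower means, with 0.14, 0.84 and 0.015 in the 3 rounds and a mean of 0.33 ± 0.49 (SE), and it lay below the array median in every sample. The annotation does not say which Ntrk2 transcript form, full-length or lacking the kinase, each probe set reads, so the unlike rounds of these probe sets cannot be assigned to a form.

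**Figure D1:**
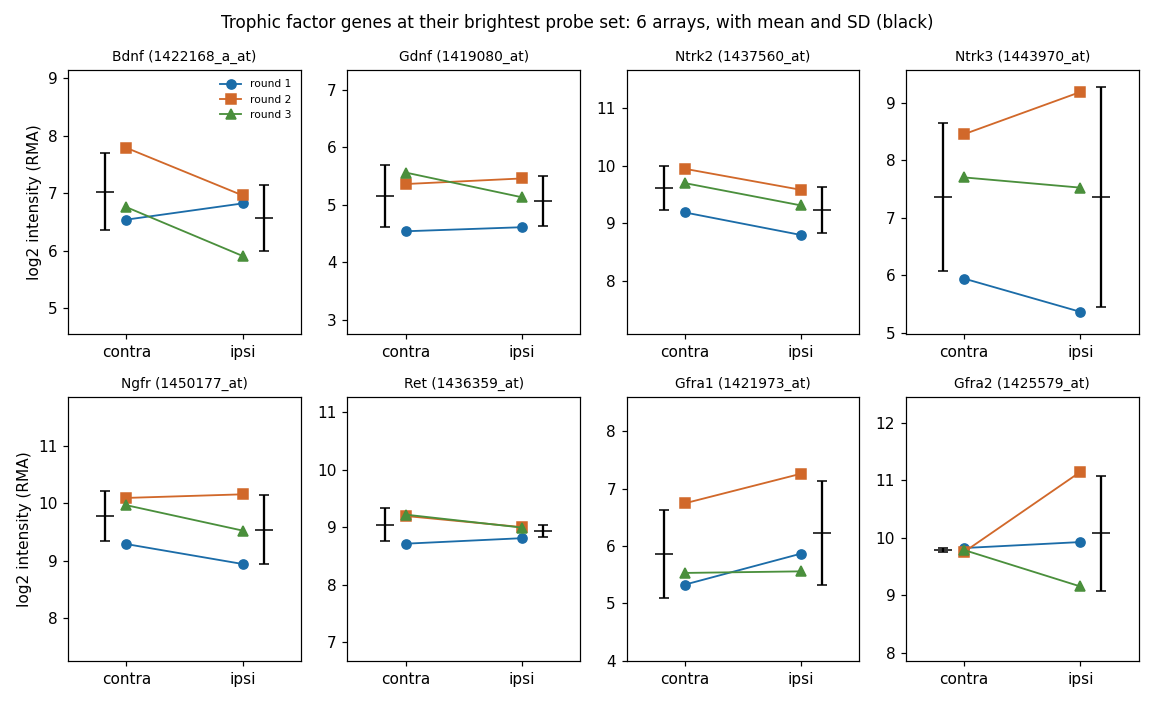
Log2 intensity of 8 trophic factor genes at the brightest probe set of each, in contralateral and ipsilateral RGCs of rounds 1 to 3. Lines join the samples of a round, black bars give the mean and SD of 3 samples, and every panel spans the same log2 range. Ntrk2 was lower in ipsilateral RGCs in each round, by 0.37 to 0.39, whereas Ntrk3 moved far more between rounds than between sides.

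Ntrk3, which encodes TrkC, had 8 probe sets of which 7 were tested, and 5 of these had a lower mean in ipsilateral RGCs. The brightest, 1443970_at, was set by the round. Ipsilateral RGCs had 5.37, 9.19 and 7.53 and contralateral RGCs 5.94, 8.46 and 7.70, so that round means spread over 3.17 on the log2 scale while the sides differed by -0.01 ± 0.81 (SE). The direction at this probe set turns with the normalization, to 0.021 after quantile normalization of the deposited values.

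The probe set 1455917_at of Ntrk3 was, on the deposited scale, the only 1 of the 31 whose groups did not overlap, against 5.29% of all probe sets in either direction. Its ipsilateral values were 5.799, 5.888 and 5.795 and its contralateral values 6.101, 6.332 and 6.239. All ipsilateral samples thus lay below all contralateral samples, by a mean of -0.40 ± 0.38 (limma SE, 1.32-fold lower). The SD was 0.05 in ipsilateral and 0.12 in contralateral RGCs, so this SE is not the spread of these samples alone. The limma adjusted p of this probe set was 1 without and 0.310 with the replicate block. Its groups overlapped after each sample was centred on its median. On that scale 5 others of the 31 did not overlap, all lower in ipsilateral RGCs, against 10.1% of all probe sets in either direction: Ntrk2 1437560_at and 1435305_at, Ngfr 1421241_at, Gfra2 1433716_x_at and Ret 1421359_at. At 1422329_a_at the rounds also ran one way, with differences of -0.19, -0.25 and -0.57.

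The only trophic factor probe set past 2-fold in size rested on a single array. At 1447723_at of Ntrk3, contralateral RGCs of round 1 had 7.70, and the other 5 samples lay between 4.16 and 5.53. The mean difference of -1.11 ± 0.62 (SE; 2.16-fold lower, limma adjusted p = 1) was -0.30 without that sample. The remaining tested probe sets, 1426003_at, 1425070_at and 1425071_s_at, had mean differences of 0.20, 0.05 and -0.07, and 1433825_at fell under the filter.

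Ngfr, which encodes p75NTR, was, of the 7 genes with more than 1 probe set, that whose mean differences lay closest together. All 3 means were lower in ipsilateral RGCs, with differences from -0.36 to -0.24. At the brightest, 1450177_at, ipsilateral RGCs had 8.94, 10.16 and 9.53 and contralateral RGCs 9.29, 10.09 and 9.97. Rounds 1 and 3 were lower in ipsilateral RGCs and round 2 was higher by 0.06, with a mean of -0.24 ± 0.44 (SE). At 1454903_at the ipsilateral values were 7.28, 7.57 and 7.89 and the contralateral values 7.86, 7.82 and 8.14, lower in each round. At 1421241_at the 3 rounds gave -0.22, -0.29 and -0.28. Neither of these reached an adjusted p under 0.05 in limma with the replicate block (0.377 and 0.464).

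Ret, the signaling kinase of the GDNF family, differed little at 1436359_at. Ipsilateral RGCs had 8.81, 9.0 and 8.99 and contralateral RGCs 8.71, 9.19 and 9.22, a mean difference of -0.11 ± 0.39 (SE), with a replicate-block 95% interval of -0.48 to 0.27. At 1421359_at ipsilateral RGCs had 8.27, 9.13 and 8.82 and contralateral RGCs 8.47, 9.20 and 9.49, lower in all 3 rounds by 0.07 to 0.68. The larger value belonged to round 3.

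Gfra1, the preferred coreceptor of GDNF, was the only gene of the 8 with a positive mean over its tested probe sets, 0.41 over 3. At the brightest, 1421973_at, ipsilateral RGCs had 5.87, 7.26 and 5.56 and contralateral RGCs 5.33, 6.74 and 5.53. The ipsilateral sample was higher by 0.54 and 0.51 in rounds 1 and 2 and by 0.03 in round 3, for a mean of 0.36 ± 0.53 (SE; limma adjusted p = 1, and 0.425 with the replicate block). The probe set 1450440_at turned on 1 array, ipsilateral RGCs of round 2 at 7.34 against 4.37 to 5.20 in the other 5 samples, and its mean difference of 0.88 ± 0.61 (SE) was 0.03 without it. At 1439015_at, which lay below the array median in every sample, the mean difference was -0.0045.

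Gfra2, the preferred coreceptor of neurturin, had 5 probe sets, each above the array median in all 6 samples. At the brightest, 1425579_at, contralateral RGCs were nearly level at 9.82, 9.75 and 9.79, and ipsilateral RGCs had 9.92, 11.15 and 9.15. The mean was 0.29 ± 0.49 (SE) and became -0.25 without ipsilateral RGCs of round 2. The other 4 probe sets had lower ipsilateral means, from -0.43 at 1433716_x_at to -0.15 at 1425578_a_at. The suffix of 1433716_x_at and 1459847_x_at marks probes that may also bind other sequences, and the Ntrk3 probe set 1425071_s_at may read related transcripts.

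**Figure D2:**
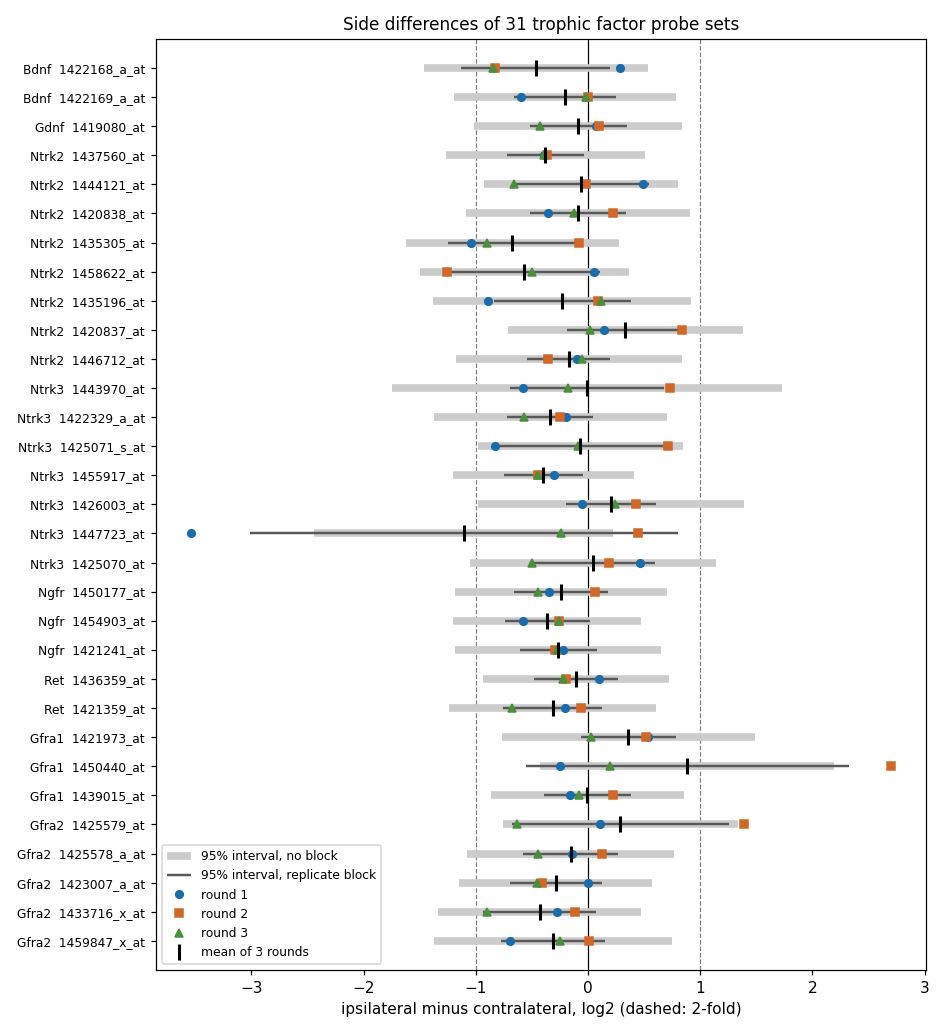
Ipsilateral minus contralateral log2 difference of the 31 tested trophic factor probe sets, grouped by gene, with symbols for the 3 rounds and a black tick for their mean. Light bars give the 95% interval of the fit without a block, dark lines that with the replicate block, and dashed lines mark 2-fold. Round 1 of Ntrk3 1447723_at (-3.54) and round 2 of Gfra1 1450440_at (2.70) stood far from their other rounds.

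Across all trophic factor probe sets, small differences toward lower ipsilateral values prevailed. The mean was lower in ipsilateral RGCs for 25 of 31 probe sets (80.6%), against 52.7% of all probe sets kept, and the median difference was -0.20 against -0.02 over the array. The probe sets are not independent, since several read the same transcript and all share the 6 samples. In all 3 rounds, 9 of 31 were lower in ipsilateral RGCs against 19.7% of all probe sets, and 2 of 31 (Ntrk2 1420837_at and Gfra1 1421973_at) were higher against 16.7%. The 9 comprised 3 of Ntrk2, 2 each of Ntrk3 and Ngfr, and 1 each of Gfra2 and Ret. With the replicate block, 3 of 31 had an unadjusted limma p under 0.05 (Ntrk2 1437560_at and 1435305_at and Ntrk3 1455917_at), against 14.0% of all probe sets, so this share was below that of the array.

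The rounds did not contribute alike. The median difference over the 31 probe sets was -0.20, 0.01 and -0.28 in rounds 1, 2 and 3, whereas that of all probe sets was -0.01, -0.02 and -0.01. Leaving out both samples of round 1, 2 or 3 left 20, 28 or 21 of 31 lower in ipsilateral RGCs, against 52.3%, 52.2% or 52.6% of all probe sets. Because levels moved between rounds, leaving out a single sample had larger effects. The count was 14 of 31 without ipsilateral RGCs of round 1 and 18 of 31 without contralateral RGCs of round 3. In these fits the share over all probe sets moved to 25.7% and 44.4%. With each of the other samples left out, the count ran from 20 to 29 of 31, and that share from 31.4% to 77.6%.

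The spread between samples, which limma moves toward a value shared by all probe sets, sets how small a difference could have been seen. Without the block, the 95% interval of the difference lay within 2-fold either way for 4 of 31 probe sets, and with the replicate block for 25 of 31. At the brightest probe set of each gene the block kept the interval within 2-fold for Gdnf, Ntrk2, Ntrk3, Ngfr, Ret and Gfra1, and the intervals of Bdnf (-1.13 to 0.20) and Gfra2 (-0.68 to 1.25) passed it. These intervals are not adjusted for the number of probe sets. In 21 of 31 probe sets the round means spread further than the largest difference between sides, and in 13 of 31 after each sample was centred on its median.

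The other genes of the pathway were taken from lists by role, at the brightest probe set of each gene. Of 88 genes listed, 74 were tested, and 1 rose in ipsilateral RGCs and 0 fell, against 0.358% of all 15346 genes called. At 2-fold and an unadjusted limma p under 0.05, 6 were higher and 0 lower, against 2.63% of all genes in either direction. The median difference over the 74 genes was 0.03, against -0.01 over all genes.

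Among the other ligands, 3 of 6 were tested and 0 called in limma (0 at an unadjusted p under 0.05 and 2-fold). Neurturin (Nrtn), the ligand of Gfra2, differed by 0.14 ± 0.43 (SE), artemin (Artn) by -0.20 and persephin (Pspn) by -0.21. None of 14 other receptors and coreceptors was called, and none passed at an unadjusted p and 2-fold. Lrig1, a membrane protein known to restrain receptor tyrosine kinases including Ret, had 0.78, 1.21 and 0.98 in the 3 rounds, a mean of 0.99 ± 0.60 (SE; limma adjusted p = 1). Sorcs1 and Sorcs2, receptors of the sortilin family, differed by 0.48 and 0.37, and Lingo1, a partner of p75NTR in the Nogo receptor complex, by -0.43.

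Of 6 tested genes on the list for pro-neurotrophin processing, 0 were called in limma (0 at an unadjusted p and 2-fold). The proprotein convertase gene Pcsk5 was higher in each round, by 0.42, 1.05 and 0.94, with a mean of 0.80 ± 0.56 (SE). Pcsk1, Plat (tissue plasminogen activator) and Pcsk6 differed by -0.46, 0.15 and -0.10. Of 19 adaptors of Trk and Ret, 0 were called in limma (0 at an unadjusted p and 2-fold), and 13 had a lower mean in ipsilateral RGCs. The largest differences were -0.60 for Sos2, a Ras exchange factor, -0.54 for Sh2b2, 0.50 for Shc1 and -0.50 for Shc2, both of the Shc family. The 6 adaptors of p75NTR spanned -0.17 (Maged1) to 0.23 (Traf6), with Bex1 at -0.15 and Irak1 at 0.18, and 0 were called in limma (0 at an unadjusted p and 2-fold).

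The response and feedback genes, which growth factor receptors of many kinds induce through ERK signaling, were the role group with a call. Of 13 genes, 12 had a higher mean in ipsilateral RGCs, 5 were higher at 2-fold and an unadjusted p, and 1 rose by the adjusted test. Egr2, a zinc finger transcription factor, rose by 4.39, 4.24 and 3.78 in the 3 rounds, a mean of 4.14 ± 0.50 (SE; 17.6-fold, limma adjusted p = 0.00281). Fos, Etv5 and Egr1 differed by 2.19, 1.80 and 1.48 with limma adjusted p of 0.0794, 0.481 and 0.608. With the replicate block Fos and Etv5 passed the criterion as well (limma adjusted p = 0.0490 and 0.0394). Egr2, Fos, Etv5 and Egr1 are in a gene table that the study drew from these same samples, which leaves their direction without independent evidence. Other cell types, microglia among them, also express Egr2 and Fos, and the markers of microglia described next moved the same way in the same samples. Their part in the values of these response genes was not tested.

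Of 13 survival and death effectors, 0 were called in limma and 1 was higher at an unadjusted p and 2-fold. Bcl2, which blocks apoptosis, had 0.91, 1.40 and 1.73 in the 3 rounds, a mean of 1.35 ± 0.47 (SE; 2.54-fold, limma adjusted p = 0.939, and 0.100 with the replicate block), and it too is in the study's gene table. The proapoptotic genes Hrk and Bcl2l11 (Bim) differed by -0.45 and 0.43, and the kinase Akt2 by 0.36. The median of the list was -0.01 and its mean 0.06, of opposite sign.

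**Figure D3:**
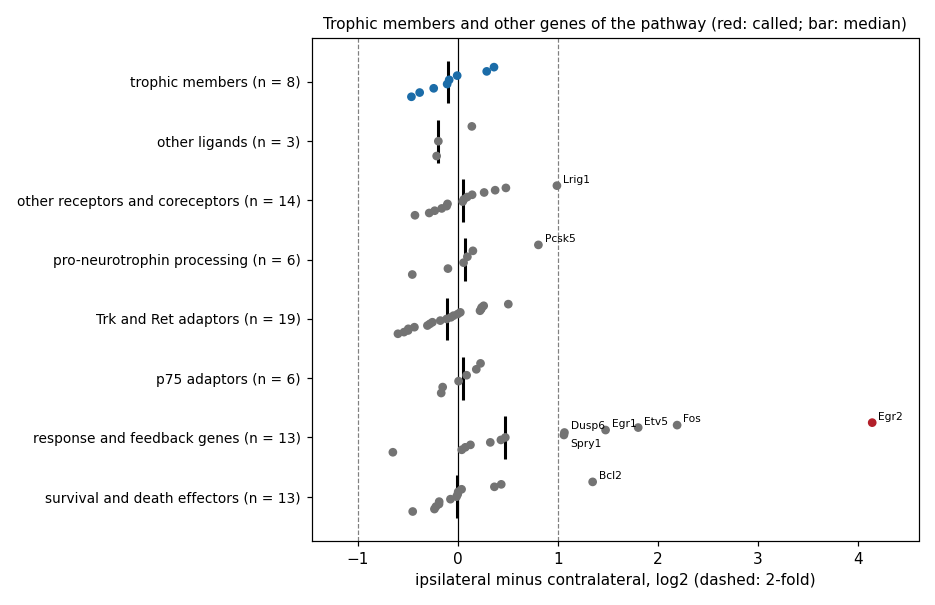
Ipsilateral minus contralateral log2 difference of 8 trophic factor genes (blue) and 74 other genes of the pathway in 7 role groups, 1 point per gene at its brightest probe set. Black bars are medians, dashed lines mark 2-fold and red marks the called gene. Egr2 stood at 4.14, while all 8 trophic factor genes lay between -0.46 and 0.36.

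Markers of some cell types moved with the sides. Those of amacrine and horizontal cells (4 higher, 3 lower), endothelial cells and pericytes (3 and 3) and astrocytes (2 and 2) were split in direction. At the brightest probe set of each gene, 14 RGC markers were tested, among them Pou4f1, Isl1, Rbpms, Sncg and Slc17a6. Their mean log2 values ran from 7.49 (Isl2) to 13.2 (Nefl). All 14 were lower in ipsilateral samples in each round, with a median of -0.44 and 0 called in limma (0 at an unadjusted p and 2-fold). Pou4f1 and Isl2 are also known as markers of contralateral RGCs. Another probe set of Pou4f1 is in the study's gene table, lower in ipsilateral RGCs by more than 2-fold. The summed intensity of the 14 RGC markers ran from 43037 to 50657 in ipsilateral and from 52389 to 63574 in contralateral samples. Markers of microglia and macrophages were higher in ipsilateral samples for 10 of 10 genes, 7 of them called, with a median of 4.35. Their summed intensity was 7556 to 11770 in ipsilateral and 311 to 816 in contralateral samples. All 10 but C1qa are in the gene table that the study drew from these same samples, which leaves their direction without independent evidence. Of 9 retinal progenitor markers, all had higher means, with a median of 1.56. Sox2 and Sfrp2 were called (limma adjusted p = 0.0475 and 0.0321), which they were not with the replicate block (0.156 and 0.0629). By in situ hybridization the study also found Sox2 in differentiated ipsilateral RGCs, and Lhx2 there more weakly or for a shorter time. These genes thus do not mark progenitors alone. Sox2, Sfrp2, Lhx2, Notch1 and Ccnd1 are in the study's gene table as well. The medians of amacrine and horizontal, photoreceptor precursor, endothelial and pericyte, astrocyte and mesenchyme markers were 0.38, 1.16, 0.03, 0.03 and 1.12, with 0 called in limma and 2, 2, 1, 0 and 1 genes higher at an unadjusted p and 2-fold. The astrocyte mean was -0.04, opposite in sign to its median.

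The differences of the RGC markers, each at its brightest probe set, ran from -0.92 to -0.18. In that range lay 15 of the 31 trophic factor probe sets. Of the brightest probe sets, those of Ntrk2, Ngfr and Bdnf lay in it, and those of Ret, Gdnf, Ntrk3, Gfra1 and Gfra2 lay above it. The share of all probe sets in that range was not counted, so whether these counts are unusual is unknown. When the mean of the RGC markers was subtracted from each sample, which moves every difference up by 0.47, the median over the 31 trophic factor probe sets became 0.26, and 3 of 31 stayed lower in ipsilateral RGCs, against 7.20% of all probe sets. On that scale Ntrk2 1437560_at differed by 0.083, Ngfr 1450177_at by 0.22 and Bdnf 1422168_a_at by 0.00045. In these bulk samples, fewer cells of a type and less RNA per cell cannot be told apart. The part of RGC, microglia and progenitor content in the values of the trophic factor genes was not tested.

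**Figure D4:**
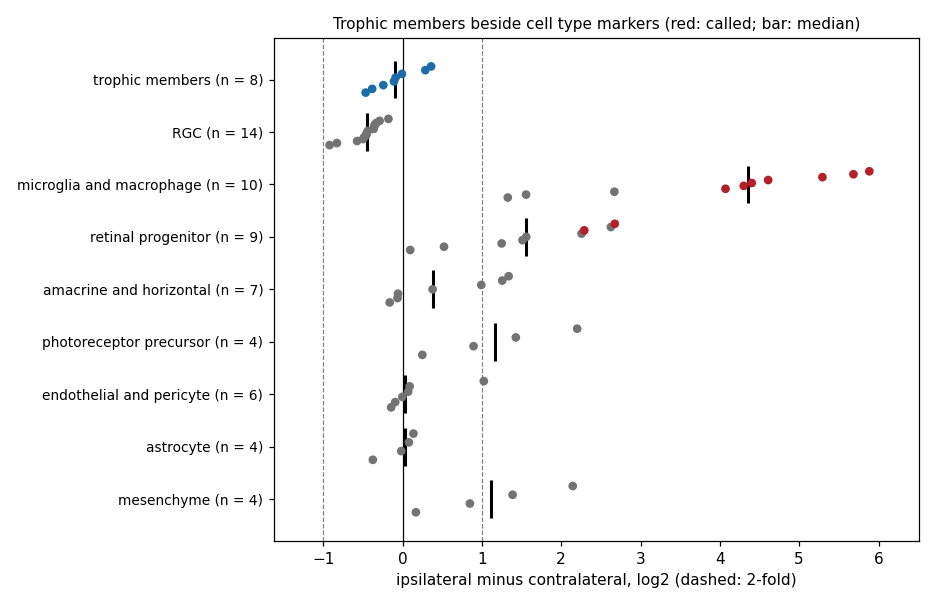
Ipsilateral minus contralateral log2 difference of 8 trophic factor genes (blue) beside markers of 8 cell types, 1 point per gene at its brightest probe set. Black bars are medians, dashed lines mark 2-fold and red marks called genes. All 14 RGC markers lay below 0, and all 10 microglia and macrophage markers lay above 1.

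The genes whose pattern over the 6 samples was most like that of Ntrk2 (1437560_at), after each sample was centred on its median, were Tmem44, Ppp1r3e and Celf5, with Pearson r of 0.996, 0.995 and 0.992. For Gfra1 (1421973_at) they were Cyp2c68, Zfp142 and Pigg, with r of 0.993, 0.991 and 0.988. Of the 15346 genes kept, 69 passed r = 0.95 with Ntrk2 and 56 with Gfra1. There are only 6 samples, and samples of a round share their preparation, so these r values are a description only. Among the trophic factor genes themselves, Ngfr was the nearest to Ntrk2 (r = 0.71) and Gfra2 to Gfra1 (r = 0.60), whereas Ntrk2 and Gfra1 had r = -0.51.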

How the data were processed

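RNA of 3 ipsilateral and 3 contralateral RGC samples was hybridized to 6 arrays. The deposited log2 intensities were made by the authors with RMA in Affymetrix Expression Console 1.1, per the labels; whether all arrays were normalized together is not given in the sources used here. Of 45101 probe sets, 64 controls were left out, and those with a mean at or above the 20th percentile (log2 4.74) were kept. Probe sets were named by the platform annotation (34945 with 1 gene, 932 with several, 9160 with none). Positions are not reported, since the values name no genome build.

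Groups were compared with limma 3.58.1 (lmFit, eBayes; R 4.3.3), without a block, as the methods name no paired test. A call needed 2-fold and, after Benjamini–Hochberg adjustment across every kept probe set, p under 0.05. The fit was tested on simulated data with independent noise and no effect of rounds. That test checks the code and cannot tell how well the fit finds differences in these samples. Replicate numbers pair samples, since the samples of a round were prepared alike: deviations of same-numbered samples correlated at 0.511 to 0.612, those of others at -0.353 to -0.207. The number of arrays limits the precision. Without the block, p-values set the difference against the spread of samples within a group, which includes that between rounds. With the block, they set it against how far the side difference varied among rounds. In either fit, limma first moves the spread of each probe set toward a value shared by all probe sets. The p-values, SEs and intervals thus do not rest on the spread of that probe set alone. Named were every trophic factor gene at each probe set, called genes and up to 4 of the largest differences per role group, and the 3 genes most like Ntrk2 and Gfra1. Members, lists and tests were chosen with earlier results of these data known. Alternatives were other filters, normalizations, variance models, call rules and probe sets, the block, and each sample left out. Scaling to RGC markers, leaving out whole rounds and the overlap of groups after median centring were chosen after seeing the data.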

Additional observations from a re-analysis of the deposited data

How the results depend on the processing

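The count of called trophic factor probe sets was 0 under every alternative run, the replicate block included (0 of 31, lowest limma adjusted p = 0.296). Over the array, 88 calls became 75 with the replicate block, 179 with an intensity trend and robust estimation, 826 with an unadjusted p, 0 with an unmoderated test (477 at an unadjusted p and 2-fold), and 53 to 220 when a sample was left out (220 without ipsilateral RGCs of round 1, 53 without ipsilateral and 56 without contralateral RGCs of round 3). The median difference of the trophic factor probe sets, -0.20, became 0.26 relative to RGC markers and ran from -0.40 to 0.061 when a sample was left out. In these fits the rounds are no longer balanced between the sides.

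At the brightest probe sets, Bdnf and Ret kept their direction under every alternative but the scaling to RGC markers, which shifts all differences up alike. Relative to RGC markers, the difference was 0.083 for Ntrk2, 0.46 for Ntrk3, 0.22 for Ngfr, 0.00045 for Bdnf, 0.36 for Ret and 0.38 for Gdnf. With a sample left out, it ran from -0.92 to 0.99 for Ntrk3, -0.55 to 0.057 for Ngfr, -0.15 to 0.80 for Gfra1, -0.25 to 0.75 for Gfra2 and -0.39 to 0.14 for Gdnf. Quantile normalization gave Ntrk3 0.021. Other probe sets turned Ntrk2 (0.33 at 1420837_at), Ntrk3 (0.20 at 1426003_at, 0.048 at 1425070_at), Gfra1 (-0.0045 at 1439015_at) and Gfra2 (-0.15, -0.29, -0.43 and -0.31, with -0.18 for the mean of its probe sets). The block, the filters and the variance models leave the difference itself as it is and change only its test, and no single gene met the criterion for a call under any alternative. The replicate block changed no call of a trophic factor gene. Causes were not tested. The values carry no detection call, so which dim probe sets exceed background is unknown.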
